A study of Saccharomyces cerevisiae with 27 samples.

Results

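The data are the effects of the MGA2 fragment and of the SPT23 fragment on each gene of budding yeast, set against each other. For every gene, the log2 ratio of expressed over repressed SPT23 fragment was subtracted from the log2 ratio of expressed over repressed MGA2 fragment. Values of exactly 0, 10 or -10 in either comparison were left out, which gave a difference for 5823 of the 6709 genes in the authors' deposited table. The libraries behind it are 12 of the 27 in the series, in 4 groups of 3. A positive difference means a higher value with the MGA2 fragment, and a negative difference a higher value with the SPT23 fragment.

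The series measured poly-A RNA by paired-end sequencing in Saccharomyces cerevisiae with altered membrane lipids or oxygen supply. The groups mga2p90 and mga2p90-dox carried the plasmid pCM188-MGA2p90, and the groups spt23p90 and spt23p90-dox carried pCM188-SPT23p90. In each pair the group without doxycycline was unrepressed and expressed the fragment, and the group with doxycycline was repressed and served as its reference. All 4 groups are labelled as S288C and were grown in CSM, a synthetic medium. pCM188 drives its insert from a promoter that doxycycline shuts off, so within a comparison the fragment and the lack of doxycycline cannot be told apart. A strain with the empty plasmid was not used here.

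Mga2 and Spt23 are homologous proteins held in the endoplasmic reticulum membrane. Ubiquitin ligase Rsp5 and the proteasome release an amino-terminal p90 fragment of each, which enters the nucleus and activates OLE1, the gene of the only fatty acid desaturase of this yeast. The chromosomal copies respond to membrane lipid packing, whereas a p90 fragment expressed from a plasmid needs no release from the membrane.

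The authors' deposited table gives 1 log2 ratio and 1 q value (a p-value corrected for many tests) per gene and comparison, with no value or error per library, and the depth is unknown. Unadjusted p-values were not given either. No test of the difference between the fragments could therefore be made. Every difference below is a value without an error, and a call with one fragment and none with the other does not show that the fragments differ. Genes with an authors' q below 0.05 are named as called, and "rose" and "fell" are kept for them. The fragment comparisons share no library. The difference is one of effects, each against its own repressed group, and not of RNA levels between the strains. A change in RNA per cell and a change in the mix of cells cannot be told apart in such cultures.

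The promoters of 4 genes on which the description turns are shown here: OLE1, the shared target, INO1 and VHT1, which rank among the largest differences toward MGA2, and ERG3, the most negative difference among the late ergosterol genes. Each line is 250 bases on the coding strand, from 350 to 101 bases before the coding start, read from the R64 genome of RefSeq. None of the windows holds coding sequence of another gene. Capitals mark matches on either strand to CATGTG (core of the Ino2-Ino4 element of phospholipid genes), CACCC (core of the Aft1 iron element), CACGTG (the Cbf1 element), AGGGG (the stress element), ATTGTT (core of the element of the hypoxic repressor Rox1), TCGTATA (a sterol regulatory element) and the fixed bases of the Vhr1 element of biotin genes.
OLE1 (chrVII:398278-398527, plus strand): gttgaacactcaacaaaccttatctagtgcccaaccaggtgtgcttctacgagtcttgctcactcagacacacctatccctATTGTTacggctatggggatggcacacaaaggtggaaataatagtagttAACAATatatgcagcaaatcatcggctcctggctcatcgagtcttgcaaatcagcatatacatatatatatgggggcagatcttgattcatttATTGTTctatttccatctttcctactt
INO1 (chrX:136034-136283, minus strand): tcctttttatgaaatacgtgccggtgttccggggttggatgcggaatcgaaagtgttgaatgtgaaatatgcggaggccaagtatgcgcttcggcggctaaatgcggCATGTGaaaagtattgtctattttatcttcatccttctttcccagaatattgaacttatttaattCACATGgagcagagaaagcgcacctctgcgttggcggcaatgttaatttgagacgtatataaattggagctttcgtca
VHT1 (chrVII:619959-620208, minus strand): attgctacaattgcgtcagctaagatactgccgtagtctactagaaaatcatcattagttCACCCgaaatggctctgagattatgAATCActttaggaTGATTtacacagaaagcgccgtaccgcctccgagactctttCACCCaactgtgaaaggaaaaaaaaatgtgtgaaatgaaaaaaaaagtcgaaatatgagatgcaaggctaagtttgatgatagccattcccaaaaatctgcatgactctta
ERG3 (chrXII:253511-253760, plus strand): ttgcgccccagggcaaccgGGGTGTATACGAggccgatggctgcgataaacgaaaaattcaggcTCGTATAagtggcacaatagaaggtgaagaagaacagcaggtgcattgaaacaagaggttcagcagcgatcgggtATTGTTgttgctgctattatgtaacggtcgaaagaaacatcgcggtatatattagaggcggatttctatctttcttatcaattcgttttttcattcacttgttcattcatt

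A match describes the letters and not a bound site. TCGTATA and the Vhr1 element were added to 5 motifs fixed in the plan, so their matches in sterol and biotin genes were looked for. The OLE1 window held 3 matches to the Rox1 core, the INO1 window 2 to the Ino2-Ino4 core, and the VHT1 window 1 to the Vhr1 element and 2 to CACCC. The ERG3 window held 2 matches to TCGTATA, 1 of which abuts the CACCC match, and 1 to ATTGTT. Among all 6009 such windows, CATGTG was found in 7.51%, CACCC in 19.6%, CACGTG in 3.78%, AGGGG in 20.2%, ATTGTT in 27.9%, TCGTATA in 3.88% and the Vhr1 element in 0.183%.

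The fragment genes themselves came out as labelled. MGA2 had a deposited log2 of 3.73 in the MGA2 comparison, 13.3-fold higher (q 0.000304), and SPT23 had 2.55 in the SPT23 comparison, 5.86-fold higher (q 0.000304). Reads from the plasmid and from the chromosomal copy are not separated in these values. The fragment gene thus rose by more with MGA2 than with SPT23, and no value below was scaled to that rise; its part in the differences was not tested. MGA2 fell with the SPT23 fragment, at a deposited log2 of -1.46 (q 0.000304). SPT23 was not called with the MGA2 fragment, at 0.32 (q 0.251).

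OLE1 rose with both fragments. Its deposited log2 was 2.18 with MGA2, 4.52-fold (q 0.000304), and 1.11 with SPT23, 2.15-fold (q 0.00259), a difference of 1.07. Of the 10 genes of OLE1 and activator processing, 8 had a positive difference. The 10 include MGA2 and SPT23, at differences of 5.19 and -2.23. These are the genes carried on the plasmids, so both signs come with the design. UBX2, a membrane factor that recruits Cdc48 to the endoplasmic reticulum, rose with MGA2 (deposited log2 0.93) and stood at 0.02 with SPT23. BUL1, a partner of Rsp5, fell with SPT23 (-0.83) and was at 0.46 with MGA2. RSP5 itself fell with MGA2 (-0.87) and was at -0.46 with SPT23.

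**Figure D1:**
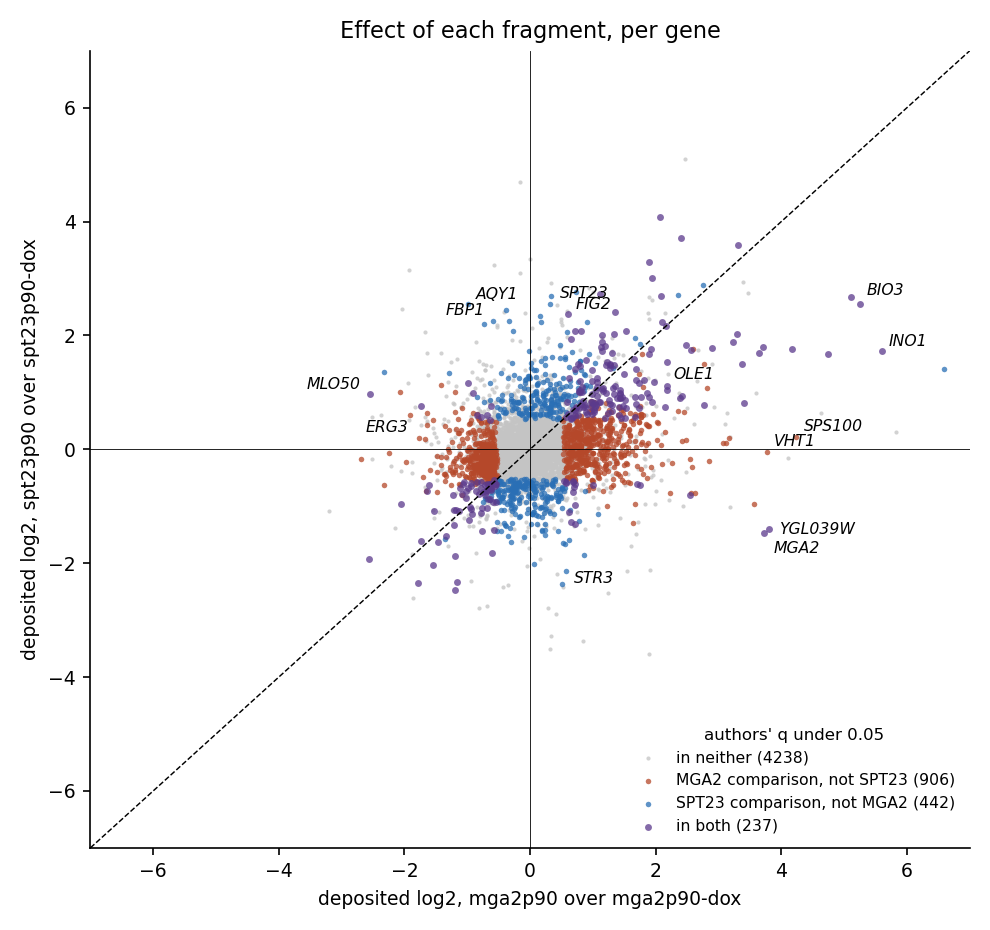
Deposited log2 ratios of 5823 genes, with the MGA2 comparison on the horizontal and the SPT23 comparison on the vertical axis, coloured by where the authors' q was under 0.05; the dashed line marks equal effects, and 3 genes beyond 7 in size lie outside. INO1, BIO3 and VHT1 lie far to the right of the line, while AQY1 and FBP1 lie above it at the left.

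Across the 5823 genes, the deposited table called 672 higher and 471 lower with MGA2, or 11.5% and 8.09%. With SPT23 it called 374 higher and 305 lower, or 6.42% and 5.24%. Both fragments gave a call for 237 genes, which is 20.7% of the MGA2 calls and 34.9% of the SPT23 calls. Of these, 145 rose with both, 65 fell with both and 27 went opposite ways. Among the 145, the median deposited log2 was 1.27 with MGA2 and 1.03 with SPT23, and the rise was larger with MGA2 in 97. Among the 65, the medians were -0.85 and -0.79, and the fall was larger in size with MGA2 in 31.

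The deposited log2 values spread more widely with MGA2, with an interquartile range of 0.745 against 0.586 with SPT23. The difference had a median of 0.01, quartiles of -0.38 and 0.44 and an SD of 0.973 over genes. Across genes the effects had a Pearson correlation of 0.117 and a Spearman correlation of 0.240, as a description of 5823 points that come from 1 table. Leaving out 3 genes with values beyond 10 in size raised Pearson's r to 0.269. Among them, RSO55 stood at a deposited log2 of 19.03 with MGA2 and -17.72 with SPT23, and it was called with neither.

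A difference of at least 2-fold in favour of MGA2 was seen in 538 genes (9.24%), and one in favour of SPT23 in 374 genes (6.42%). Of the 538, 335 (62.3%) were called with at least 1 fragment, and of the 374, 165 (44.1%) were, against 1585 (27.2%) of all 5823 genes. Both sides were picked by the same log2 values that the calls rest on. A higher share of calls than over all genes therefore comes with the choice and lends the differences no weight. Short genes were common on both sides, and more so on the SPT23 side: among genes with a coding length matched in RefSeq, 500 bases or less were seen for 80 of 496 on the MGA2 side (16.1%), 81 of 318 on the SPT23 side (25.5%) and 584 of 5547 over all (10.5%). Without these short genes the MGA2 side held 458 genes and the SPT23 side 293. Without the 42 and 56 genes that had no matched length as well, the sides held 416 and 237. The part of coding length in these counts was not tested.

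**Figure D2:**
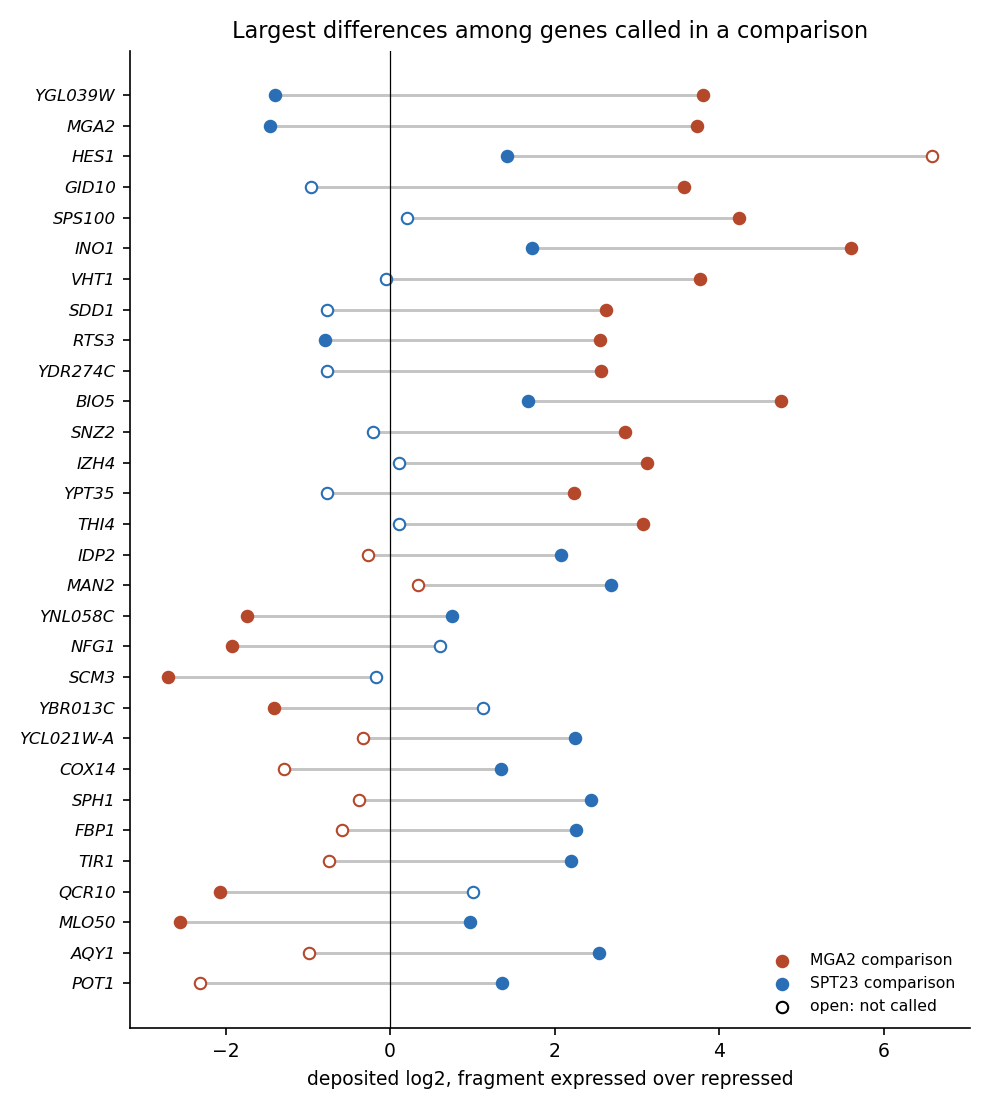
Deposited log2 in the MGA2 comparison (red) and the SPT23 comparison (blue) for the 15 largest positive and 15 largest negative differences among genes called in at least 1 comparison; filled points have an authors' q under 0.05. YGL039W, MGA2, RTS3, MLO50 and YNL058C have filled points on opposite sides of 0.

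Among called genes, the largest difference toward MGA2 was that of YGL039W, which encodes an aldehyde reductase. It rose with MGA2 (deposited log2 3.81) and fell with SPT23 (-1.39), a difference of 5.20. HES1, an oxysterol-binding protein gene, had a difference of 5.16, but its deposited log2 of 6.58 with MGA2 was not called (q 0.231), whereas its rise of 1.42 with SPT23 was. GID10, a substrate receptor of the GID ubiquitin ligase, rose with MGA2 (3.57) and stood at -0.96 with SPT23. SPS100, a spore wall protein gene, rose with MGA2 (4.24, q 0.0145) and was at 0.21 with SPT23. GID10 is the upstream neighbour of VHT1 on the same strand, and whether reads were counted by strand was not given in the sources used here.

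Genes that rose with MGA2 by the deposited q and were not called with SPT23 also included SDD1 (2.62 and -0.77), YDR274C (2.56 and -0.77), IZH4, an IZH membrane protein gene (3.12 and 0.11), and YPT35, an endosomal adaptor gene (2.23 and -0.77). RTS3 rose with MGA2 (deposited log2 2.55) and fell with SPT23 (-0.80). Each of these had a difference of at least 3.00.

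Toward SPT23 the largest differences were smaller. POT1, the peroxisomal thiolase of beta-oxidation, rose with SPT23 (deposited log2 1.36, q 0.0134) and stood at -2.32 with MGA2 at a q of 1, a difference of -3.67. AQY1, an aquaporin gene, rose with SPT23 (2.55) and was at -0.98 with MGA2. FBP1, the fructose-1,6-bisphosphatase of gluconeogenesis, rose with SPT23 (2.25) and was at -0.59 with MGA2. The 27 glucose-repressed genes that include FBP1 did not lean to SPT23: their median difference was 0.05, with 14 above 0 and 13 below. TIR1, a cell wall mannoprotein gene known from anaerobic cells, rose 4.59-fold with SPT23 and was at -0.74 with MGA2. Its list of anaerobic mannoproteins and seripauperins, a family of near-identical genes, held 30 genes. Of these, 23 were left out for their listed values, and 3 of the 23 were called. The remaining 7 had differences of either sign, 4 above 0 and 3 below, and do not stand for the whole list. In that list TIR2 rose with MGA2 (1.88) and was at 0.41 with SPT23, and DAN4 rose with both (2.19 and 1.03). IDP2, the cytosolic NADP-dependent isocitrate dehydrogenase, rose with SPT23 (2.07) and was at -0.26 with MGA2.

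In other cases the MGA2 fragment gave the call. QCR10, a subunit of the cytochrome bc1 complex, fell with MGA2 (deposited log2 -2.07, q 0.0381) and was at 1.00 with SPT23 (q 0.0888). SCM3, the chaperone of the centromeric histone, fell with MGA2 (-2.70, q 0.0489) and was at -0.17 with SPT23. NFG1 fell with MGA2 (-1.92) and was at 0.61 with SPT23. The differences of SPH1, COX14, YCL021W-A, YBR013C and MAN2 lay between -2.82 and -2.35.

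Of the 27 genes called in opposite directions, 18 rose with MGA2 and fell with SPT23, and 9 did the reverse. The 18 included SAM2, an S-adenosylmethionine synthetase (deposited log2 1.74 and -0.62), and ATF1, the alcohol acetyltransferase of acetate ester synthesis (1.70 and -0.61). The 9 included MLO50 (-2.55 and 0.97), YNL058C (-1.74 and 0.76), PRM4, a pheromone-regulated gene (-0.91 and 0.98), COX5A, a cytochrome c oxidase subunit (-0.84 and 0.60), and ERG5, the sterol C-22 desaturase (-0.64 and 0.52). At an authors' q under 0.01, 5 of the opposite calls remained.

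**Figure D3:**
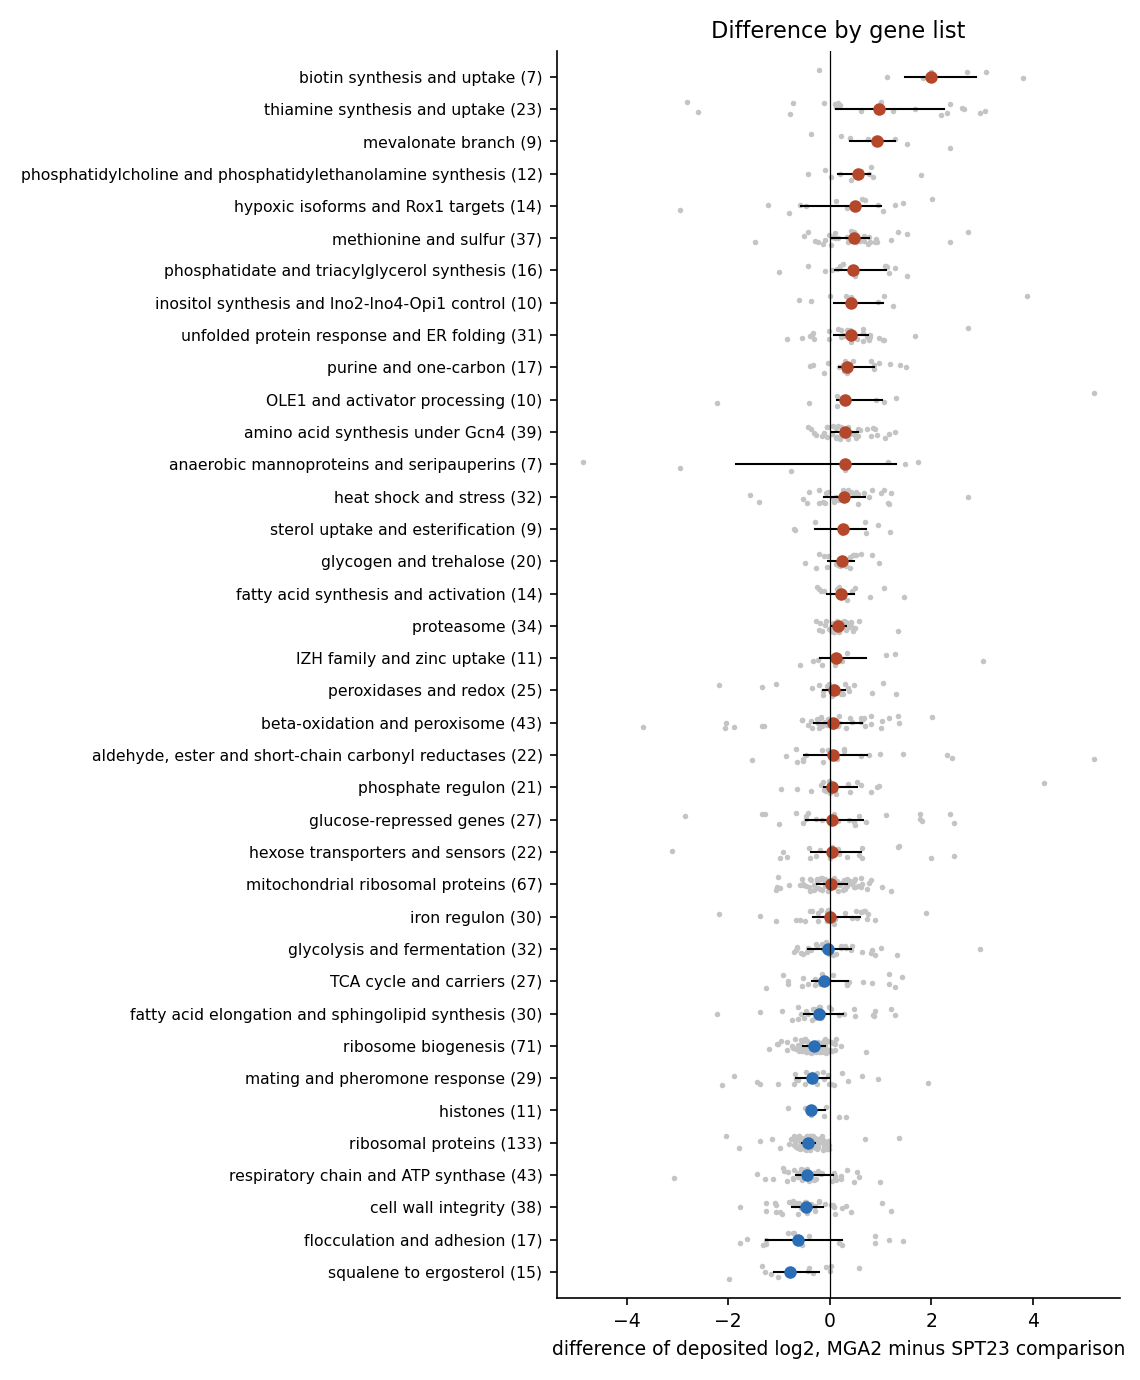
Difference of deposited log2, MGA2 minus SPT23 comparison, for 38 gene lists; grey points are genes, black bars the quartiles and coloured points the medians, with the number of genes in brackets. Biotin, thiamine and mevalonate genes lie at the top, and the late ergosterol genes at the bottom with a median of -0.79.

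The lists that follow are described by counts and medians, beside a median difference of 0.01 and a positive difference in 50.7% of all 5823 genes. Counts of calls stand beside 11.5% risen and 8.09% fallen with MGA2 over all genes, and 6.42% and 5.24% with SPT23. Some lie near these shares and say nothing about their list, such as 3 of 71 ribosome biogenesis genes fallen with SPT23. The lists were not tested, and nothing below shows that a list stands apart from other genes. Further members were named after their values had been seen.

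Biotin genes had the most positive median difference of the 39 lists, at 1.99 over 7 genes. With MGA2, 6 of the 7 rose, and with SPT23, 4 did. The synthesis genes rose with both fragments: BIO3, which makes diaminopelargonic acid, had a deposited log2 of 5.25 with MGA2 and 2.56 with SPT23, BIO4, the dethiobiotin synthetase, 2.90 and 1.78, and BIO2, the biotin synthase, 2.77 and 0.78. BIO5, a transporter of a biotin precursor, rose by 4.75 and 1.67 on the same deposited log2 scale. VHT1, the plasma membrane biotin transporter, rose with MGA2 (deposited log2 3.77, 13.6-fold) and stood at -0.05 with SPT23 (q 0.895). BPL1, the ligase that attaches biotin to carboxylases such as Acc1, rose with MGA2 (1.32) and was at -0.52 with SPT23 (q 0.0537). VHR1, the activator of VHT1 and BIO5, was called with neither (-0.27 and -0.06). The Vhr1 element, marked in the VHT1 promoter above, was found in 2 of the 7 windows, those of BIO5 and VHT1.

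Thiamine and vitamin B6 genes had a median difference of 0.96 over 23 genes, of which 12 rose and 1 fell with MGA2, while 4 rose with SPT23. THI4, which makes the thiazole ring of thiamine, rose with MGA2 (deposited log2 3.07, q 0.0175) and stood at 0.11 with SPT23 (q 1). SNZ1, a vitamin B6 synthesis gene, rose with both (3.41 and 0.81), and its relative SNZ2 rose with MGA2 (2.85) and was at -0.21 with SPT23. THI7, the plasma membrane thiamine transporter, rose with both by near amounts (1.89 and 1.68). SNO2 and SNO3, partners of the SNZ genes, had negative differences of -2.82 and -2.59 without any call. SNZ2 and SNZ3, and THI5 with its relatives, are near-identical copies whose reads can be split between them, so the single values are uncertain.

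Inositol and phospholipid lists had positive median differences. INO1, the inositol-3-phosphate synthase, had a deposited log2 of 5.61 with MGA2, 48.8-fold (q 0.000304), and 1.72 with SPT23, 3.29-fold (q 0.000304), a difference of 3.89. Its transcriptional activators INO2 and INO4 rose with MGA2 (1.50 and 1.14) and stood at 0.42 and -0.10 with SPT23. ITR1, the inositol transporter, rose with MGA2 (1.45) and was at 0.49 with SPT23, and OPI1, the repressor, was called with neither (0.20 and -0.22). The median difference was 0.42 over 10 inositol genes, with 4 risen with MGA2 and 1 with SPT23.

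Of 12 genes of phosphatidylcholine and phosphatidylethanolamine synthesis, 7 rose with MGA2, while 2 rose and 1 fell with SPT23, and the median difference was 0.55. CKI1, the choline kinase, rose with MGA2 (deposited log2 1.54) and was at -0.26 with SPT23. OPI3, a phospholipid methyltransferase, rose with both (1.77 and 0.92), as did CHO1, the phosphatidylserine synthase (1.00 and 0.80). PCT1, the enzyme that follows the choline kinase in the same route, fell with SPT23 (-0.76) and stood at -0.20 with MGA2. The core marked in the INO1 promoter, CATGTG, was found in 9 of the 12 windows of this list, against 7.51% of all windows. Among genes at least 2-fold higher with MGA2 it was found in 7.88% of windows, and in 5.97% on the SPT23 side. CATGTG is the core of an element of phospholipid genes, so a high share in this list comes with the choice of list. The shares on the sides cover genes of many functions, and none of these shares was tested.

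In phosphatidate and triacylglycerol synthesis, 6 of 16 genes rose and 2 fell with MGA2, and none rose and 2 fell with SPT23, at a median difference of 0.45. PAH1, the phosphatidate phosphatase that makes diacylglycerol, rose with MGA2 (deposited log2 1.20) and was at -0.09 with SPT23. NEM1 and SPO7, the phosphatase complex that activates Pah1, rose with MGA2 (1.55 and 0.89) and stood at 0.03 and -0.28 with SPT23. LRO1, an acyltransferase of triacylglycerol synthesis, fell with MGA2 (-1.21) and was at -0.20 with SPT23. ALE1, a lysophospholipid acyltransferase, rose with MGA2 (1.64) and was at 0.51 with SPT23, while SCT1, the glycerol-3-phosphate acyltransferase, fell with SPT23 (-0.85) and was at 0.25 with MGA2.

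**Figure D4:**
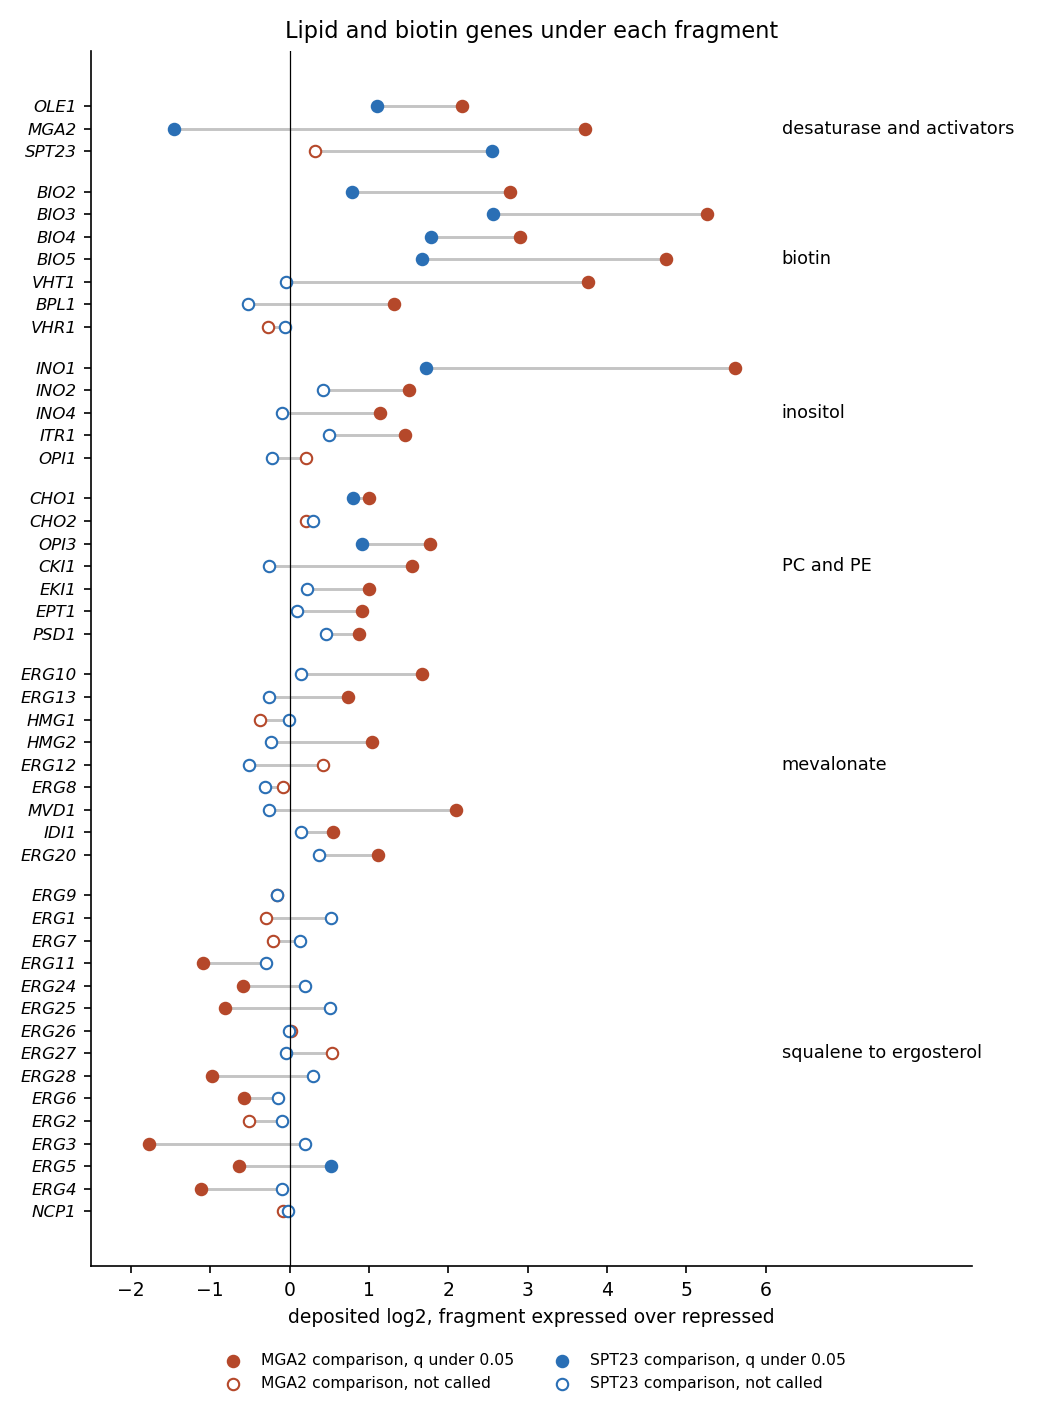
Deposited log2 of lipid and biotin genes with the MGA2 fragment (red) and the SPT23 fragment (blue), joined per gene; filled points have an authors' q under 0.05. Mevalonate genes with a filled red point lie above 0, and late ergosterol genes with one lie below 0 (PC, phosphatidylcholine; PE, phosphatidylethanolamine).

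The early and late parts of sterol synthesis had differences of opposite sign. Of 9 mevalonate genes, which lead from acetyl-CoA to farnesyl pyrophosphate, 6 rose with MGA2 and 0 were called with SPT23, and the median difference was 0.93. MVD1 (ERG19), the mevalonate pyrophosphate decarboxylase, rose with MGA2 (deposited log2 2.10, 4.29-fold) and was at -0.26 with SPT23. ERG10, the acetoacetyl-CoA thiolase, stood at 1.67 and 0.15, HMG2, a hydroxymethylglutaryl-CoA reductase, at 1.04 and -0.23, and ERG13, its synthase, at 0.74 and -0.27; all 3 rose with MGA2. HMG1, the other reductase, was called with neither (-0.38 and -0.01).

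Of 15 genes from squalene to ergosterol, 8 fell with MGA2 and 1 rose with SPT23, and 12 had a negative difference, with a median of -0.79. ERG3, the C-5 sterol desaturase, fell with MGA2 (deposited log2 -1.78) and stood at 0.20 with SPT23, a difference of -1.97. ERG25, the C-4 methyl oxidase, fell with MGA2 (-0.82) and was at 0.51 with SPT23 (q 0.109). ERG28, the scaffold of the C-4 demethylation complex, fell with MGA2 (-0.98) and was at 0.29 with SPT23. ERG11 and ERG4 also fell with MGA2 (-1.10 and -1.12) and were at -0.30 and -0.09 with SPT23. TCGTATA was found in 3 of the 15 windows, those of ERG2, ERG28 and ERG3, against 3.88% of all windows. It was in 4.04% of windows of genes at least 2-fold higher with MGA2 and in 6.6% on the SPT23 side. Upc2 and Ecm22, which activate sterol genes, had positive differences: UPC2 rose with MGA2 (0.91) and was at 0.22 with SPT23, and ECM22 fell with SPT23 (-0.68) and was at 0.50 with MGA2.

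Several fatty acid synthesis genes had near values with both fragments. ACC1, the acetyl-CoA carboxylase, rose with both (deposited log2 0.98 and 0.84). FAS1 and FAS2, the fatty acid synthase subunits, rose with MGA2 (0.73 and 0.94) and stood at 0.55 and 0.67 with SPT23 without a call. The difference was larger for ACB1, the acyl-CoA-binding protein, which rose with MGA2 (1.75) and was at 0.29 with SPT23. Over 14 such genes, 7 rose with MGA2 and 2 with SPT23, and the median difference was 0.23.

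Among 30 genes of elongation and sphingolipid synthesis the signs were mixed, with a median difference of -0.21. TSC3, a stimulator of serine palmitoyltransferase, fell with MGA2 (deposited log2 -1.20) and was at 1.01 with SPT23 (q 0.0545). KEI1, a subunit of inositolphosphorylceramide synthase, fell with MGA2 (-0.62) and rose with SPT23 (0.76). In contrast ISC1, a sphingolipid phospholipase, rose with MGA2 (1.33) and stood at 0.05 with SPT23, and ORM2, a regulator of sphingolipid synthesis, rose with MGA2 (1.24) and stood at 0.03 with SPT23.

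In the IZH family, IZH2 rose with both fragments (deposited log2 3.30 and 2.02), and IZH1 and IZH4 rose with MGA2 (1.48 and 3.12) and stood at 0.38 and 0.11 with SPT23. Over the 11 genes of the IZH and zinc list the median difference was 0.13, and it turned to -0.04 when each comparison was divided by its interquartile range.

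Methionine and sulfur genes had a median difference of 0.48 over 37 genes. Of these, 18 fell and 1 rose with SPT23, while 6 fell and 5 rose with MGA2. STR3, a cystathionine beta-lyase, fell with SPT23 (deposited log2 -2.14, q 0.000304) and was at 0.57 with MGA2 (q 0.0574). SAM3, an S-adenosylmethionine permease, MET6, the methionine synthase, and SER33, of serine synthesis, fell with SPT23 (-1.14, -0.86 and -1.33) and stood at 0.38, 0.34 and -0.40 with MGA2. MET17, MET5 and MUP3 fell with both. The Cbf1 element was found in 18 of the 37 windows, against 3.78% of all windows. It was in 3.84% of windows of genes at least 2-fold higher with MGA2 and in 4.09% on the SPT23 side.

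Of 17 purine and one-carbon genes, 4 fell with SPT23 and none fell with MGA2, as for ADE2 (deposited log2 -1.08 with SPT23 and 0.30 with MGA2). GCV1 and GCV2, subunits of the glycine cleavage complex, rose with MGA2 (1.08 and 0.92) and were at -0.43 and -0.26 with SPT23. The median difference of the list was 0.34.

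Of 31 ER folding genes, 9 rose and 1 fell with MGA2, while none rose and 2 fell with SPT23, and their median difference was 0.41. The gene that fell with MGA2 was SBH1 (deposited log2 -0.88), which stood at -0.03 with SPT23. KAR2, the luminal Hsp70, rose with MGA2 (deposited log2 1.11) and stood at 0.07 with SPT23, PDI1 at 0.89 and 0.13, and ERO1 at 0.77 and -0.20. Among 32 heat shock and stress genes the median difference was 0.28, with exceptions in both directions. CTT1, the cytosolic catalase, rose with MGA2 (2.55) and was at -0.17 with SPT23. HSP12 rose with SPT23 (1.31) and was at -0.26 with MGA2, and HSP26 rose with both, by 1.90 with MGA2 and 3.29 with SPT23.

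Cytosolic ribosomal protein genes had the most uniform sign of the 39 lists. Of 133 genes, 131 had a negative difference, and the median was -0.42. With MGA2, 72 fell and none rose, while with SPT23, 2 fell and none rose; their median deposited log2 was -0.67 with MGA2 and -0.25 with SPT23. Of the 133, 4 were at least 2-fold higher with SPT23 and 1 with MGA2. RPS29A, among these 4, fell with MGA2 (-0.81) and was at 0.34 with SPT23, above the list median. Many of these genes exist as near-identical pairs, whose single values are uncertain. Of 71 ribosome biogenesis genes, 12 fell with MGA2 and 3 with SPT23, and 63 had a negative difference, with a median of -0.31.

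Respiratory chain and ATP synthase genes rose with SPT23 in 17 of 43 cases, while 3 rose and 3 fell with MGA2, and the median difference was -0.45. ATP15 and CYT1, subunits of ATP synthase and of the bc1 complex, rose with SPT23 (deposited log2 1.11 and 0.94) and stood at -0.17 and 0.02 with MGA2. RIP1, the Rieske protein, rose with SPT23 (0.84) and was at -0.27 with MGA2. Mitochondrial ribosomal proteins did not share this sign: their median difference was 0.02 over 67 genes, and it turned to -0.01 with each comparison centred on its median.

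Mating and adhesion lists had negative median differences. Of 29 mating genes, 15 rose with SPT23, 8 rose and 1 fell with MGA2, and 22 had a negative difference, with a median of -0.35. FUS1, a cell fusion gene, rose with SPT23 (deposited log2 1.43) and was at 0.01 with MGA2. FIG2 and AGA1, mating adhesins, rose with both, FIG2 by 0.61 with MGA2 and 2.37 with SPT23, and AGA1 by 1.11 and 2.73. TEC1, a transcription factor of filamentous growth, rose with SPT23 (1.16) and was at -0.08 with MGA2. The flocculin gene FLO1 rose with both, by 2.40 with MGA2 and 3.72 with SPT23, and shares repeats with FLO9 and FLO5, so its value is uncertain. The 17 flocculation and adhesion genes had a median difference of -0.62, with 11 below 0, although 9 rose and 1 fell with MGA2 while 6 rose with SPT23. Their median deposited log2 was 0.61 with MGA2 and 0.39 with SPT23. NRG2, a repressor gene of filamentous growth and flocculation, went the other way, since it rose with MGA2 (1.87) and was at 0.42 with SPT23.

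Of 38 cell wall integrity genes, 9 rose and 2 fell with SPT23, 2 rose and 4 fell with MGA2, and 29 had a negative difference, with a median of -0.46. CWP1, a wall mannoprotein, fell with MGA2 (deposited log2 -1.98) and was at -0.22 with SPT23. The kinase genes BCK1 and MKK2 went the other way, since they fell with SPT23 (-0.80 and -0.96) and stood at 0.41 and 0.07 with MGA2.

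The iron, hypoxic and peroxisomal lists held members with differences of either sign. In the iron regulon 8 of 30 genes rose with MGA2 and 13 with SPT23, and the median difference of 0.01 changed sign with the scaling. TIS11, which promotes decay of messenger RNAs of iron-using proteins, rose more with MGA2 (deposited log2 3.38 and 1.49), while ATX1, a copper chaperone gene, rose with SPT23 (2.34) and was at 0.15 with MGA2. CACCC was found in 25 of the 30 windows, against 19.6% of all windows. It was in 22.2% of windows of genes at least 2-fold higher with MGA2 and in 18.9% on the SPT23 side. The 14 hypoxic genes had a median difference of 0.49, with 9 above 0. Of these genes, NCE103, the carbonic anhydrase, rose with MGA2 (2.09) and was at 0.08 with SPT23. HEM13, of haem synthesis, rose with both fragments, by 1.14 with MGA2 and 1.73 with SPT23. In beta-oxidation and peroxisome biogenesis, 10 of 43 genes rose with each fragment, at a median difference of 0.07 that turned to -0.03 over genes with q under 1 in both comparisons. PEX27 rose with SPT23 (2.77) and was at 0.73 with MGA2, and PEX13 rose with MGA2 (1.46) and was at -0.55 with SPT23. HXT6, a hexose transporter, rose with both (5.11 and 2.67), while HXT7 rose with SPT23 (1.31) and was at 0.39 with MGA2. HXT6 and HXT7 thus had differences of opposite sign, but they are near-identical and their values are uncertain.

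**Figure D5:**
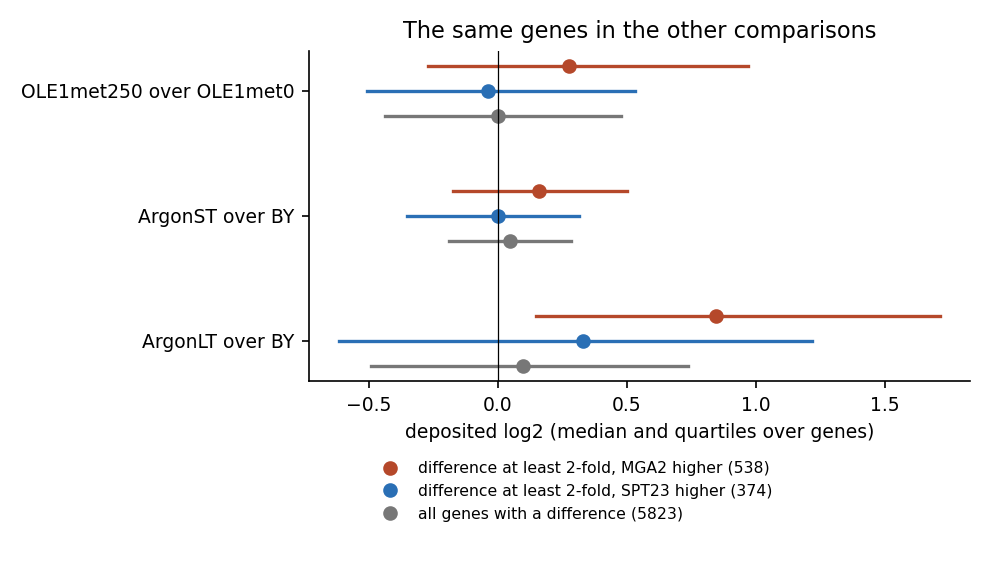
Median (point) and quartiles (line) of deposited log2 in 3 comparisons that use none of the 12 libraries, for genes at least 2-fold higher with MGA2 (red), at least 2-fold higher with SPT23 (blue) and all genes with a difference (grey). In ArgonLT over BY the median is 0.84 on the MGA2 side, 0.33 on the SPT23 side and 0.10 over all.

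The remaining comparisons of the deposited table use none of these 12 libraries. OLE1met250 over OLE1met0 is labelled as pMET3-OLE1 with methionine over pMET3-OLE1, a strain with OLE1 under the MET3 promoter. ArgonLT and ArgonST over BY are long-term hypoxia and short-term argon against aerated cells. In ArgonLT, 43.3% of the 538 genes at least 2-fold higher with MGA2 rose and 3.9% fell, against 23.1% and 18% of all genes. Of the 374 genes at least 2-fold higher with SPT23, 19.5% rose and 9.09% fell. In OLE1met250, 30.5% of the MGA2 side rose and 10.2% fell, against 17.2% and 15% of all genes, while the SPT23 side had 12.8% in each direction. In ArgonST, 7.43% of the MGA2 side rose and 1.86% fell, against 4.53% and 2.18% of all genes, and on the SPT23 side 3.21% rose and 4.28% fell.

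MGA2 itself rose in OLE1met250 and ArgonLT, at a deposited log2 of 4.33 and 2.23 (q 0.000304 in each), and was at 0.48 in ArgonST (q 0.0769). SPT23 was at 0.38 and 0.40 without a call in OLE1met250 and ArgonLT, and rose in ArgonST (0.57, q 0.0304). OLE1 was at -0.03 in OLE1met250 (q 0.925), the group described as low in lipid unsaturation, and rose in ArgonLT (3.20). INO1 rose in OLE1met250 and ArgonLT (3.14 and 6.29), as did YGL039W (2.53 and 3.61). VHT1 rose in ArgonLT (2.14) and stood at -0.04 in OLE1met250. On the SPT23 side, FIG2 and FUS1 fell in OLE1met250 (-2.42 and -2.90) and rose in ArgonLT (2.16 and 1.70).

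The 886 genes left out for a value of exactly 0, 10 or -10 included 36 that the authors called with at least 1 fragment. MCO6 was listed at 10 with MGA2 and at -10 with SPT23, with a call in each, and YDR246W-A was listed at -10 and 10, also with a call in each. A value of 10 or -10 was read as a ratio to a group without signal. PAU2 and PAU4, of the seripauperin family of near-identical genes, were listed at 10 with SPT23, where both were called, and with MGA2 PAU2 stood at 1.38 and PAU4 at 10, each at a q of 1. PAU17 of the same family was listed at -10 with SPT23, with a call (q 0.00175), and at 0.74 with MGA2. SIP18, a desiccation gene, was listed at 10 with SPT23 (q 0.000304) and at -10 with MGA2 at a q of 1. THI12 was listed at 10 with MGA2 (q 0.000304).

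Among strain and plasmid markers, LEU2 and LYS2 were listed at 0 in both fragment comparisons, which was read as no value. MET17 fell with both fragments, at a deposited log2 of -1.22 with MGA2 and -1.33 with SPT23. URA3, the marker gene of the plasmid, had a deposited log2 of -0.52 with MGA2 (q 0.0555) and -0.72 with SPT23, where it fell (q 0.00453). Of the 5823 genes, 610 share a locus line with another gene in the deposited table, so that overlapping genes there can share reads.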

How the data were processed

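Poly-A RNA of 27 libraries was sequenced in pairs of reads, and 12 libraries in 4 groups of 3, assigned from their titles, enter the values here. Per the file headers, the authors deposited 1 log2 ratio and 1 q value per gene for each of 5 comparisons, read as the group named before over the group named after. Trimmomatic 0.33, TopHat2 2.0.14, Cuffdiff 2.2.1 and build R64 stand in the submitters' processing notes. Their settings, the annotation, strand use and the scope of the q adjustment were not given in the sources used here. In its design text, the series describes the 3 libraries of a group as biological replicates. The deposited values carry no counts or errors, so depth, intervals and tests of the difference are missing.

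From these values, differences, counts of calls, medians and quartiles over 39 lists, and correlations across genes were computed. Only the median of a list and the correlation were tried on simulated normal values with a known shift. That trial held no special values, calls or list matching, so it could not show errors there. Genes matched the R64 annotation of RefSeq by systematic name in 6022 cases, and 5378 had the same end and a start 1 lower, as a 0-based start would be. Coordinates printed are 1-based RefSeq ones. Members and lists were chosen with earlier results of these data known. The genes named are the targets OLE1, SPT23 and MGA2, the 15 largest differences on each side among genes called in at least 1 comparison, up to 10 opposite calls a side, and up to 3 called members per list; others were chosen after their values were seen.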

Additional observations from a re-analysis of the deposited data

How the results depend on the processing

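No paired analysis was possible because the deposited table holds no value per library; for the same reason no replicate could be left out. With a limit of 4-fold, 100 genes were higher with MGA2 and 77 with SPT23. Without genes of 500 bases or less and genes with no matched length, 416 genes were at least 2-fold higher with MGA2 and 237 with SPT23; without the short genes alone, 458 and 293 were. At an authors' q under 0.01, 612 genes were called with MGA2 and 330 with SPT23, 82 higher in both, 25 lower in both and 5 in opposite directions. The correlation was 0.240 by ranks, 0.269 without values beyond 10 and 0.381 over 1585 genes called with either fragment. The last 2 settings, and those leaving out short, unmatched or overlapping genes, were chosen after seeing the data. The list medians that changed sign were all small. They were the iron regulon (-0.00937 centred, -0.0444 scaled by the interquartile range, -0.0288 without overlapping genes), IZH and zinc genes (-0.0446 scaled), glycolysis (0.00618 scaled), beta-oxidation (-0.0287 with q under 1 in both comparisons), mitochondrial ribosomal proteins (-0.00521 centred, -0.00357 without overlapping genes) and the phosphate regulon (-0.00506 with q under 1). The cause of these changes was not tested. Of 39 list medians, 32 kept their value within the spread used when centred, 30 when scaled, 33 with q under 1 and 35 without overlapping genes, and 34 of 38 did so without short genes and 33 of 38 without short or unmatched genes. Depth is unknown, so which differences it limits cannot be said.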
